A study of Mus musculus with 71 samples.

Results

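Transcripts of 8 genes of the DNA methylation cycle, Dnmt1, Dnmt3a, Dnmt3b, Dnmt3l, Uhrf1, Tet1, Tet2 and Tdg, were followed in mouse embryonic stem cells in which the RNA methyltransferase Mettl3 was inhibited. The 8 genes were picked by name from 21527 genes in the tables. They were measured by SLAM-seq, in which RNA is labelled with 4-thiouridine (s4U), the label is washed out, and the converted T positions read as C show how much labelled RNA remains. Male mESC, the same cells in every group, were grown in 2i/LIF medium with s4U at 100 µM for 24 h, and then chased with an excess of uridine. The Mettl3 inhibitor STM2457, or DMSO as solvent control, was given from 6 h before the chase to its end. RNA was taken at 8 chase times, of 0, 1, 1.5, 2.3, 3.5, 5.3, 8 and 12 h, so the last time is 18 h of treatment. Cells without s4U were taken for both treatments, and the time at which they were taken is not stated in the labels. Each of the 18 groups held 4 libraries, except STM2457 at 3.5 h with 3, which makes 71 libraries. All came from a single line of cultured cells, and replicates were independent biological ones by the study's methods.

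DNA methylation in mammals is set on unmethylated DNA by the de novo enzymes Dnmt3a and Dnmt3b, with Dnmt3l as a catalytically inactive partner that stimulates both. It is copied after replication by Dnmt1, which Uhrf1 brings to hemimethylated sites. Tet1 and Tet2 oxidize 5-methylcytosine, and Tdg cuts out the oxidized bases so that base excision repair can restore cytosine. Embryonic stem cells in 2i medium are known for low DNA methylation, and m6A, the mark that Mettl3 places on mRNA, is known mainly as a mark that shortens the life of mRNA.

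Mettl3 methylates the A within GGAC and related motifs, often near the stop codon, so the motifs of the members around the stop codon are shown. GGAC followed by A, C or T was searched on the transcript strand of 1 transcript per gene from GENCODE M21 (GRCm38). Dnmt3b held 2 such motifs between 50 bases before and 150 bases after the end of the stop codon, Dnmt3a, Dnmt1, Tet2 and Tdg held 1 each, and Dnmt3l and Uhrf1 held 0. At least 1 motif stood in this window in 55.7% of 10842 transcripts of genes tested. No transcript of Tet1 met the annotation criteria. Reads were counted over 3′ UTR windows of 251 to 1000 bases. The sequences follow 5′ to 3′ on the transcript, with the motif in capitals.
Dnmt3b, coding end: cccttgaaGGACtactttgcc
Dnmt3b, 3′ UTR: tctacccaGGACtggggagct
Dnmt3a, 3′ UTR: tgtgtaagGGACatgggggca
Dnmt1, coding end: gctaccaaGGACtagtgctct
Tet2, 3′ UTR: ggccgtagGGACaggtcacag
Tdg, coding end: taattgtgGGACccgagagca

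The 2 windows of Dnmt3b lie in exon 24 at chr2:153686370-153686390 and chr2:153686401-153686421 (plus strand), with the A 19 bases before and 12 bases after the end of the stop codon. The window of Dnmt3a lies in exon 23 at chr12:3907741-3907761 (plus strand), that of Dnmt1 in exon 39 at chr9:20907515-20907535 (minus strand), that of Tet2 in exon 12 at chr3:133466655-133466675 (minus strand), and that of Tdg in exon 10 at chr10:82648678-82648698 (plus strand). Over the whole transcript the 7 members held 2.99 (Tet2) to 4.74 (Uhrf1) motifs per 1000 bases, on both sides of the median of 3.68. Dnmt3a, whose 3′ UTR has 6696 bases, held 27 motifs there, and Dnmt1 and Dnmt3l held 0 in 3′ UTRs of 312 and 273 bases. Dnmt3l lies at chr10:78041947-78063622 (plus strand), Uhrf1 at chr17:56303321-56323486 (plus strand) and Tet1 at chr10:62804570-62908996 (minus strand). A match says only that these letters are present, and methylation of the sites was not measured by these libraries.

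The libraries held 4539726 to 7368244 counted reads. Of 12659 genes past the filter on low counts, 3357 (26.5%) differed between the treatments on the mean of the 8 chase times (edgeR, adjusted p under 0.01). At the 8 single chase times in order, 1.68, 1.53, 8.18, 1.61, 1.30, 4.45, 2.34 and 5.41% of genes were called. As the groups at 1.5 and 5.3 h called more genes than their neighbours in time, means of the called members are also given without them. Libraries of a group stood apart most at 1 h, where the chi-square per degree of freedom between pairs was 31.1 to 70.7 for DMSO replicate 1 and 71.8 for STM2457 replicates 3 and 4. At 5.3 h, DMSO replicates 1 and 2 differed from 3 and 4 by 16.9 to 30.8, and pairs of the remaining groups by up to 27.4. The 11 mESC markers in the tables summed to 4058 to 5651 CPM (read counts scaled to a common library total) in DMSO and 4743 to 5754 in STM2457. On the mean of the 8 chase times, 7 of 11 were called higher and 0 lower. Of all genes tested, 13.9% were called higher and 12.6% lower. The markers of differentiated cells summed to 224 to 409 CPM in DMSO and 221 to 362 in STM2457, with Vim, a filament gene also used by cultured cells, as the most abundant of them. Of 10 tested, 2 fell, T (by 0.44) and Vim (by 0.18), and 0 rose. Of 6 markers of primed or formative cells, Fgf15 (0.80) and Sox3 (0.42) rose and Lef1 fell by 0.64. Fgf15 was low, at a mean of 1.41 CPM in DMSO and 2.36 in STM2457. Its call was lost with 1 library left out (edgeR, adjusted p = 0.013). The 6 markers summed to 48.6 to 107 CPM in DMSO and 61.7 to 115 in STM2457. The part of these differences in the results was not tested.

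On the mean of the 8 chase times, 4 of the 8 members fell under STM2457 and 0 rose, where 12.6% of all genes tested fell and 13.9% rose. None of the members rose by DESeq2 either, and Tet2 alone was higher at unadjusted p under 0.05. The members that fell were the de novo enzymes Dnmt3b and Dnmt3a, their partner Dnmt3l, and Uhrf1. The median log2 fold change of the 8 members was -0.17, and that of all genes tested was -0.01. The scaling of libraries (TMM) holds most genes near 0, so each value is relative to the other transcripts. A rise or fall shared by most transcripts would not be seen. For its RNA-seq, the paper scaled to genes without m6A sites, which was not done here. In bulk libraries such as these, fewer cells of a type and less RNA per cell cannot be told apart.

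**Figure D1:**
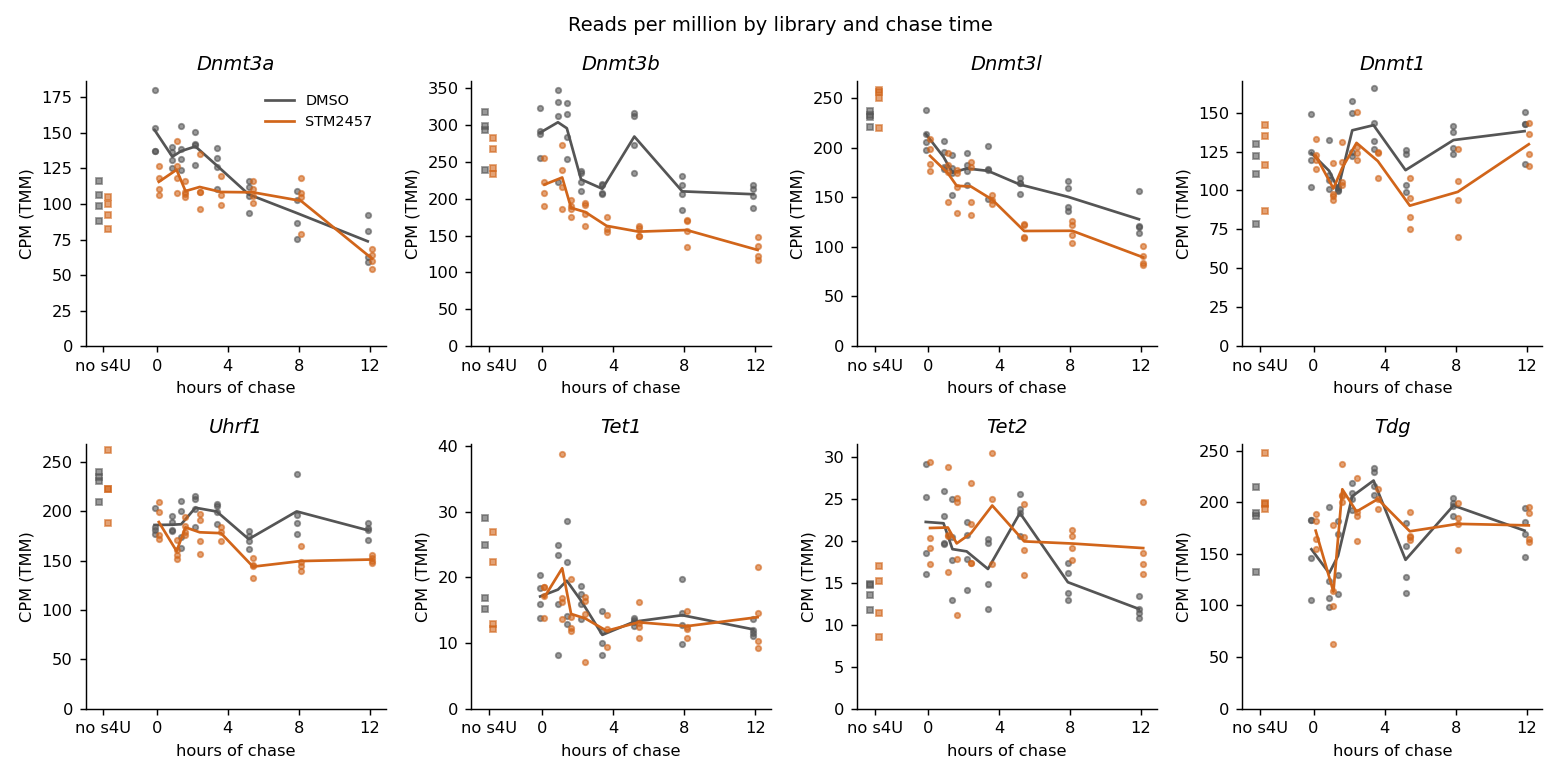
CPM (TMM scaled) of each gene against hours of chase, with libraries without s4U as squares on the left. Each point is 1 library, grey for DMSO and orange for STM2457, and lines join the means. Dnmt3b under STM2457 runs below DMSO at all chase times, the libraries of Dnmt3l separate from 5.3 h on, and the lines of Tet1 and Tdg cross.

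Dnmt3b, a de novo enzyme, showed the largest difference of the 8 genes. At the start of the chase, after 6 h of treatment, the 4 DMSO libraries held 323, 293, 255 and 288 CPM and the 4 STM2457 libraries held 223, 255, 209 and 191. The groups lay next to each other without overlap, at 255.4 for the lowest DMSO library and 255.0 for the highest STM2457 library, and 4.72% of all genes tested had all STM2457 libraries below all DMSO libraries at this time. At 12 h of chase, DMSO libraries held 219, 188, 204 and 214 CPM and STM2457 libraries held 149, 135, 122 and 116. All 4 STM2457 libraries were then below all DMSO libraries, as for 8.70% of all genes tested. The log2 fold change was -0.40 ± 0.11 (SE) at the start of the chase and -0.66 ± 0.11 at 12 h, with adjusted p = 0.024 and adjusted p = 1.4e-05 (edgeR). DESeq2 called Dnmt3b also at the start of the chase (adjusted p = 0.0080), at 1 h (adjusted p = 0.0093) and at 8 h (adjusted p = 0.0080).

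On the mean of the 8 chase times, Dnmt3b fell by 0.51 on the log2 scale (SE 0.04, adjusted p = 1.5e-17). Over the 9 comparisons from no s4U to 12 h, all STM2457 libraries lay below all DMSO libraries for 4.69, 4.72, 1.84, 11.1, 5.64, 7.14, 7.85, 6.57 and 8.70% of all genes tested, and for Dnmt3b in 7 of the 9. Its mean was lower under STM2457 in 9 of 9 comparisons, the one without s4U included, a pattern held by 6.55% of all genes tested. It was called lower at 1.5 h (-0.66), 5.3 h (-0.87) and 12 h, where 4.02%, 1.98% and 1.56% of all genes were, and at the start of the chase, where 0.411% were, it was not. At 5.3 h the DMSO mean of 285 CPM stood above those of 214 at 3.5 h and 210.1 at 8 h. At 1.5 h the DMSO mean was 296 CPM, near the 304 CPM at 1 h and above the 226 CPM at 2.3 h. With each DMSO library at 5.3 h left out in turn, the value was -0.95 to -0.82 and the call remained, and the lowest of these libraries (236 CPM) was above the highest STM2457 library (163 CPM). At 1 h, Dnmt3b was called without DMSO replicate 1 (adjusted p = 0.0013) or STM2457 replicate 4 (adjusted p = 0.0045), and not with all libraries (adjusted p = 0.023). Without the times 1.5 and 5.3 h, Dnmt3b fell by 0.43 (SE 0.05, adjusted p = 9.2e-12), and 4 members were called, all lower, where 18.8% of all genes were called and 8.33% were lower. The others fell by 0.20 (Dnmt3a, adjusted p = 0.0017), 0.26 (Dnmt3l, adjusted p = 1.7e-06) and 0.21 (Uhrf1, adjusted p = 1.3e-05).

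Without s4U, Dnmt3b held 239, 299, 293 and 318 CPM in DMSO and 283, 242, 268 and 234 CPM in STM2457. These groups overlapped, and the difference of -0.16 ± 0.11 did not pass the test (adjusted p = 0.44). None of the 8 members was called without s4U, where 2.58% of all genes were (edgeR, 0 of 8 also at unadjusted p under 0.05 and 0 by DESeq2).

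Dnmt3a, the second de novo enzyme, differed less. At the start of the chase it held 154, 180, 137 and 137 CPM in DMSO and 111, 118, 106 and 127 CPM in STM2457, without overlap. By 5.3 h the means were alike, at 107 CPM in DMSO and 108 CPM in STM2457, and at 8 h the STM2457 mean was the higher one (102 CPM against 94 CPM in DMSO). At 12 h it was the lower one again, at 61.6 CPM against 73.7 CPM in DMSO, with libraries of 54.5 to 68.1 and 58.9 to 92.1 CPM that overlapped. Its log2 fold change was -0.40 ± 0.12 (adjusted p = 0.050) at the start, 0.13 ± 0.12 at 8 h (adjusted p = 0.69) and -0.26 ± 0.12 at 12 h (adjusted p = 0.21). On the mean of the 8 chase times it fell by 0.19 (SE 0.04, adjusted p = 0.00038), but it was called at no single time. Reads were counted near the 3′ end, which the long and the short Dnmt3a isoforms share, so the values do not tell these apart.

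Dnmt3l, the partner of the de novo enzymes, was called lower at 5.3 and 12 h, and its mean was lower under STM2457 at each chase time. At the start it held 206, 197, 238 and 214 CPM in DMSO and 184, 176, 208 and 198 CPM in STM2457, and the groups overlapped. At 5.3 h DMSO libraries held 164, 153, 170 and 164 CPM and STM2457 libraries held 109, 110, 122 and 123, without overlap. At 12 h DMSO libraries held 156, 114, 120 and 121 CPM and STM2457 libraries 101, 91, 84 and 82, also without overlap. The log2 fold changes were -0.49 ± 0.11 at 5.3 h (adjusted p = 0.0012, and 0.013 in the fit of these 2 groups alone, with the call kept without each DMSO library in turn) and -0.51 ± 0.11 at 12 h (adjusted p = 0.00040). The call at 12 h rests on the DMSO library with 156 CPM: without it, the value was -0.39 (adjusted p = 0.016). On the mean of the 8 chase times Dnmt3l fell by 0.27 (SE 0.04, adjusted p = 1.3e-08).

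**Figure D2:**
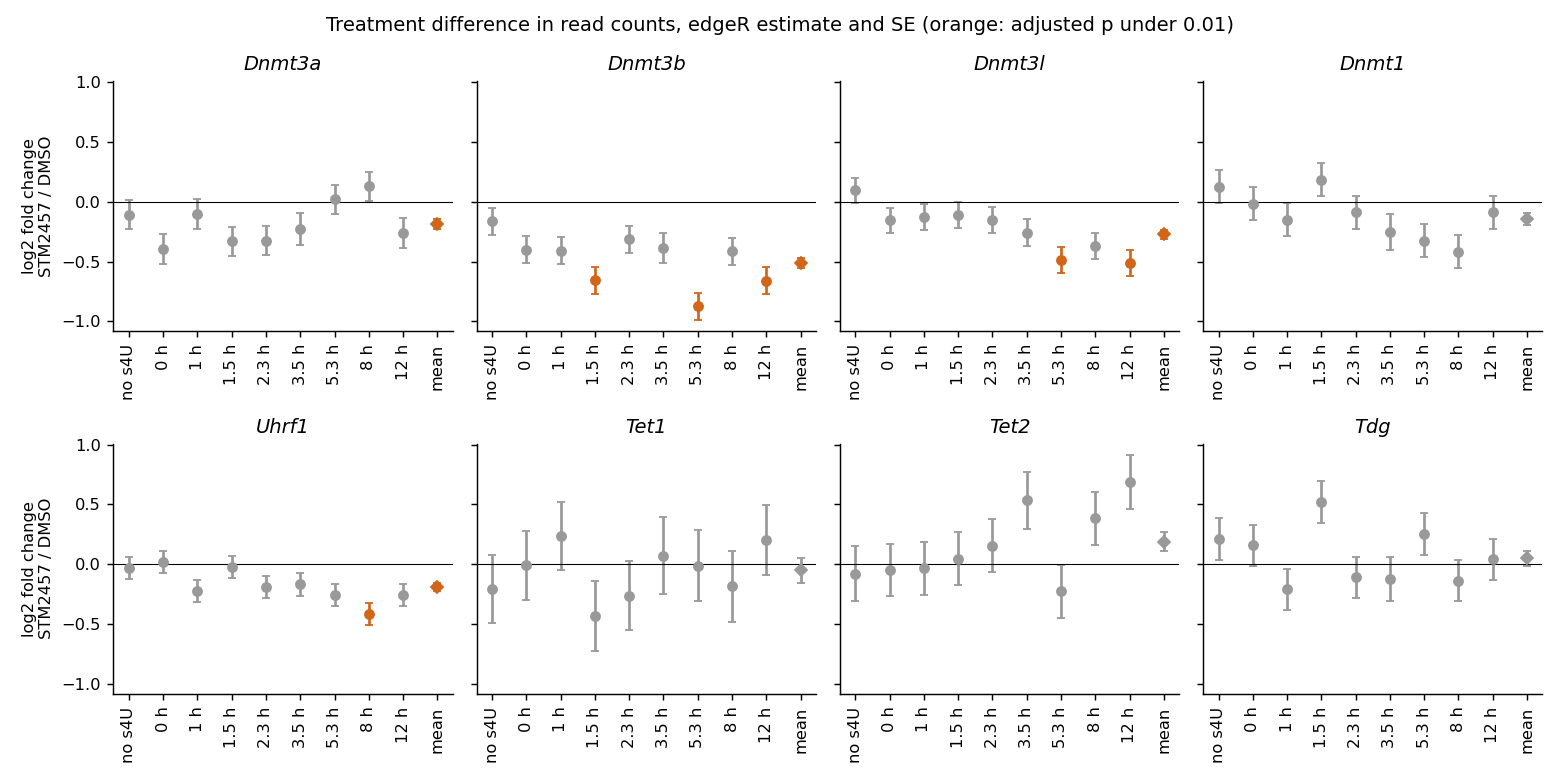
Log2 fold change of read counts, STM2457 against DMSO, for each gene without s4U, at each chase time and on the mean of the 8 times (diamond). Bars are SE of the edgeR estimate, and orange marks adjusted p under 0.01. Dnmt3b is called at 1.5, 5.3 and 12 h, Dnmt3l at 5.3 and 12 h, Uhrf1 at 8 h, and the other 5 genes at no single time.

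Uhrf1, which recognizes hemimethylated DNA, fell by 0.19 on the mean of the 8 chase times (SE 0.03, adjusted p = 2.5e-06). At the start of the chase it held 177, 181, 184 and 203 CPM in DMSO and 172, 210, 199 and 175 CPM in STM2457, and the groups overlapped. At 8 h it held 177, 196, 238 and 188 CPM in DMSO and 140, 149, 165 and 145 CPM in STM2457, without overlap. This was the only single time at which Uhrf1 was called (-0.42 ± 0.09, adjusted p = 0.0017), and 0.553% of all genes were called lower at it. It rests on the DMSO library with 238 CPM (-0.32, adjusted p = 0.039 without it) and the STM2457 library with 140 CPM (-0.39, adjusted p = 0.013 without it), and was lost without the filter on low counts (adjusted p = 0.013). At 12 h DMSO libraries held 171, 181, 188 and 183 CPM, and STM2457 libraries held 155, 147, 149 and 153. The groups again did not overlap, while the difference of -0.26 ± 0.09 did not pass the test (adjusted p = 0.058). Of the Uhrf1 reads, 28.95% mapped to more than 1 place, and with these left out the mean difference was -0.22 (adjusted p = 2.5e-06).

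Dnmt1, the maintenance enzyme, did not pass the test on the mean of the 8 chase times, at -0.15 ± 0.05 and adjusted p = 0.015 with edgeR. DESeq2 put it past the threshold, with adjusted p = 0.0081 for the same value of -0.15. At the start of the chase Dnmt1 held 119, 102, 149 and 125 CPM in DMSO and 114, 123, 120 and 133 CPM in STM2457. At 8 h it held 123, 138, 141 and 127 CPM in DMSO and 94, 70, 126 and 106 CPM in STM2457. The groups overlapped at both times, and the difference at 8 h, the largest for Dnmt1, was -0.42 ± 0.14 (adjusted p = 0.066). All STM2457 libraries were below all DMSO libraries at 3.5 h, and above them at 1.5 h, as for 11.5% of all genes tested.

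Tet2, an oxidase of 5-methylcytosine, was the member with the largest value in the other direction. At the start of the chase it held 25.3, 29.2, 18.6 and 16.1 CPM in DMSO and 20.4, 29.4, 19.2 and 17.3 CPM in STM2457, and the groups overlapped. At 12 h DMSO libraries held 11.9, 13.5, 11.5 and 10.8 CPM and STM2457 libraries held 16.1, 17.2, 18.6 and 24.7 CPM. All STM2457 libraries were then above all DMSO libraries, as for 9.21% of all genes tested. The difference at 12 h was 0.69 ± 0.23 (adjusted p = 0.040), and on the mean of the 8 chase times it was 0.19 ± 0.08 (adjusted p = 0.055). Neither passed the test. At 8 h the groups did not overlap either, at 13.02 to 17.4 CPM in DMSO and 17.8 to 21.3 CPM in STM2457, with 7.09% of all genes tested above (0.38 ± 0.22, adjusted p = 0.41). Counts of Tet2 were 56 to 184 reads in a library, so the error of each value is large.

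Tet1, the other oxidase, held 13.9, 15.9, 20.3 and 18.3 CPM in DMSO and 18.5, 17.1, 13.8 and 18.5 CPM in STM2457 at the start of the chase. The treatments overlapped in all 9 comparisons. The mean difference was -0.05 ± 0.10 (adjusted p = 0.76), and with reads mapped to more than 1 place left out (45.1% of its reads) it was 0.16 ± 0.14 (adjusted p = 0.40). Tet1 had 40 to 226 reads in a library.

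Tdg, the glycosylase of the cycle, held 106, 146, 183 and 183 CPM in DMSO and 155, 165, 181 and 189 CPM in STM2457 at the start of the chase. The groups overlapped, and the mean difference over the 8 chase times was 0.05 ± 0.06 (adjusted p = 0.57). At 1.5 h all STM2457 libraries (201 to 237 CPM) were above all DMSO libraries (111 to 182 CPM), and the difference of 0.52 ± 0.17 did not pass the test (adjusted p = 0.026, and 0.0060 in the fit of these 2 groups alone). Of its reads, 99.3% mapped to more than 1 place, so the value cannot be assigned to Tdg alone. Within DMSO its mean ran from 131 CPM at 1 h to 221 CPM at 3.5 h and back to 144 CPM at 5.3 h.

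Over the 12 h of chase, several members changed within each treatment. In DMSO, 13% of all genes differed between 12 h and the start of the chase, with 8.20% lower, and 4 of the 8 members fell. These were Dnmt3a (-1.05 ± 0.12), Tet2 (-0.90 ± 0.23), Dnmt3l (-0.74 ± 0.11) and Dnmt3b (-0.49 ± 0.11). The call of Tet2 rests on 1 library at the start of the chase: without the DMSO library that held 29.2 CPM, its value was -0.77 (adjusted p = 0.017). In STM2457, 4.72% of all genes differed, with 3.03% lower, and 3 members fell. These were Dnmt3l (-1.10 ± 0.11), Dnmt3a (-0.91 ± 0.12) and Dnmt3b (-0.75 ± 0.11), while Uhrf1 had -0.32 ± 0.09 (adjusted p = 0.014). Tet2 had -0.17 ± 0.22 in STM2457 (adjusted p = 0.71).

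The change over the chase was not shown to differ between the treatments for any member. The test of the difference called 140 of 12659 genes (1.11%) and 0 of the 8 members (edgeR, 3 at unadjusted p under 0.05, 0 by DESeq2). The largest values were 0.73 ± 0.31 for Tet2 (adjusted p = 0.25), -0.36 ± 0.15 for Dnmt3l (adjusted p = 0.24) and -0.28 ± 0.13 for Uhrf1 (adjusted p = 0.30).

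One comparison set labelled against unlabelled cells, which the time of harvest may also separate, and the effects of these cannot be told apart. Dnmt3a was higher at the start of the chase than without s4U in DMSO (0.57 ± 0.12, adjusted p = 0.0043), at 154, 180, 137 and 137 CPM against 88, 116, 99 and 106 CPM, where 0.513% of all genes were called. This call was lost when the 2 groups were fitted alone (adjusted p = 0.069). It was also lost without the labelled library at 180 CPM (adjusted p = 0.065) or 154 CPM (adjusted p = 0.016), and without the unlabelled library at 88 CPM (adjusted p = 0.044), 99 CPM (adjusted p = 0.021) or 106 CPM (adjusted p = 0.010). In STM2457 the value of Dnmt3a was 0.29 ± 0.12 (adjusted p = 0.29), and 0 of the 8 members were called (edgeR, 5 at unadjusted p under 0.05, 0 by DESeq2), where 0.521% of all genes were.

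The T-to-C conversion rate at the start of the chase gives the label content of a transcript. It is the share of covered T positions read as C. Dnmt3b had 1.47, 1.43, 1.48 and 1.53% in DMSO and 1.39, 1.62, 1.27 and 1.47% in STM2457, against a mean of 0.13% and 0.15% without s4U. The other DNMT genes and Uhrf1 had means of 1.32 to 1.56% in DMSO and 1.12 to 1.40% in STM2457.

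Tet2 stood apart from them, with 1.75, 2.43, 2.05 and 2.02% in DMSO and 1.39, 0.91, 0.90 and 0.94% in STM2457. All STM2457 libraries were below all DMSO libraries, as for 3.23% of the 9131 genes tested. These rates rest on 319 conversions at 15268 covered T positions in DMSO and 154 at 14906 in STM2457. The difference of -0.99 ± 0.60 (log2) did not pass the test (adjusted p = 0.9997, unadjusted p = 0.10). No gene was called at this time (edgeR, 0 of 9131, with 77 at unadjusted p under 0.05). These are fewer than chance alone gives, so the fit over all chase times is strict at this time. The fit of these 2 groups alone also called 0 genes (edgeR, 575 at unadjusted p under 0.05). The lack of calls therefore does not show that the rates were equal.

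During the chase, the mean rate over 1 to 12 h differed for 473 of 9131 genes (5.18%), 100 higher and 373 lower under STM2457. With each library scaled to the overall rate of its time, it was 305 genes, 198 higher and 107 lower, so the balance of higher and lower calls depends on the scaling, with which the median over all genes went from -0.05 to 0.05. None of the 8 members was called (edgeR, 4 at unadjusted p under 0.05). Those 4 were Dnmt1 (-0.27 ± 0.09, adjusted p = 0.032), Uhrf1 (-0.25 ± 0.08, adjusted p = 0.043), Dnmt3l (-0.23 ± 0.08, adjusted p = 0.070) and Dnmt3b (-0.17 ± 0.06, adjusted p = 0.072). With the scaling, these values were -0.17, -0.14, -0.12 and -0.06 (adjusted p = 0.26, 0.31, 0.40 and 0.61), and none had an unadjusted p under 0.05 (edgeR, lowest 0.057). The loss of label from the start of the chase to the later times differed between the treatments for 0 genes (edgeR, 307 at unadjusted p under 0.05). These are again fewer than chance alone gives, so this test does not show that the loss was equal.

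**Figure D3:**
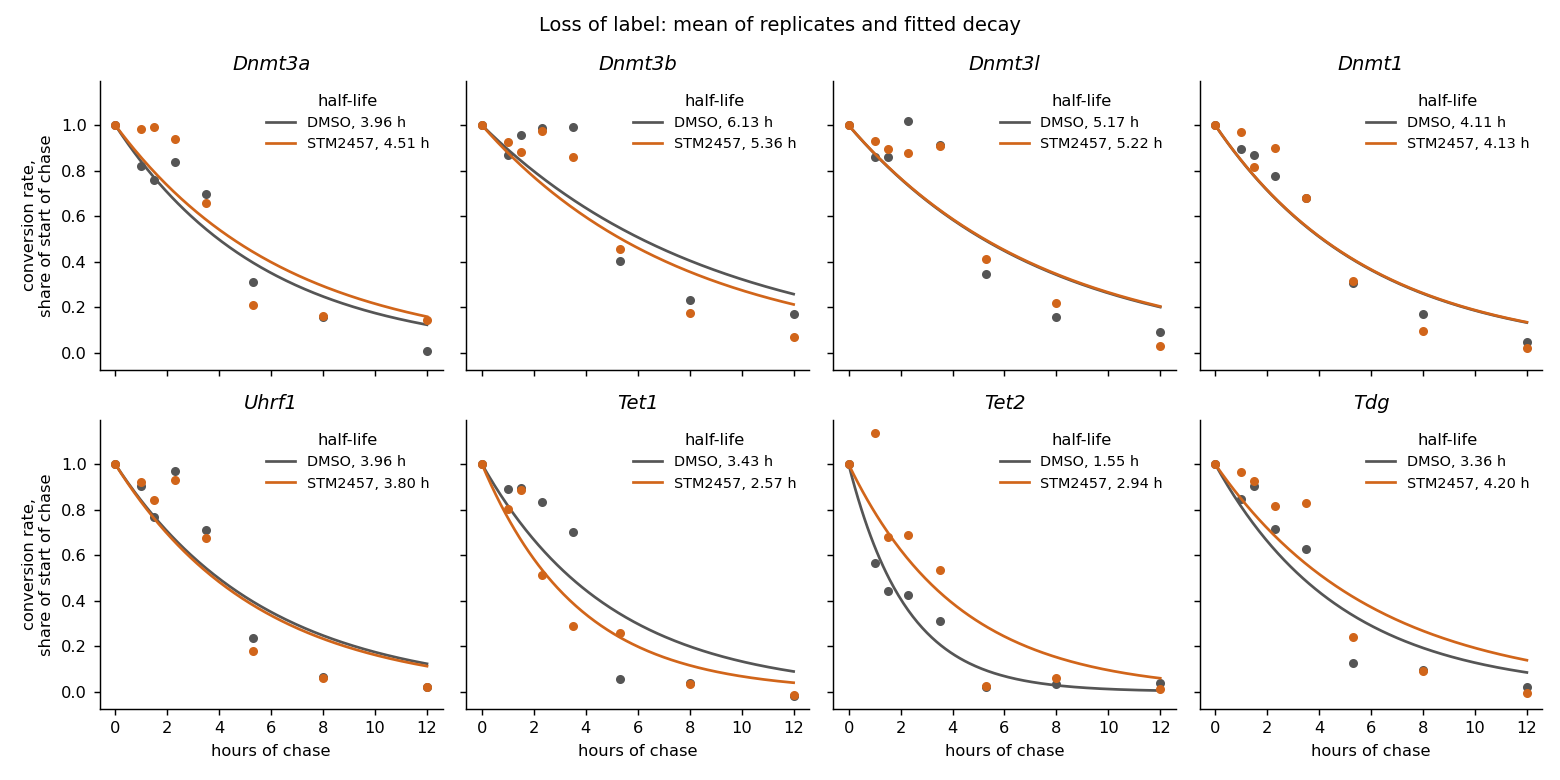
Conversion rate less the rate without s4U, as a share of the start of the chase, against hours of chase. Points are means of the replicates, lines are the fitted exponential decays, and the half-life stands in each panel. In DMSO, Dnmt3b stays near its start up to 3.5 h and drops between 3.5 and 5.3 h, which a single exponential does not follow.

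Half-lives were fitted to the loss of label, with the start of the chase set to 1. In DMSO they were 6.13 h for Dnmt3b, 5.17 h for Dnmt3l, 4.11 h for Dnmt1, 3.96 h for Dnmt3a and Uhrf1, 3.43 h for Tet1, 3.36 h for Tdg and 1.55 h for Tet2. The median over 7408 transcripts was 3.19 h, and Dnmt3b, Dnmt3l and Tet2 stood at the percentiles 91.2, 85.0 and 6.44 of these. Between neighbours in this order, the ranges of the replicate series overlapped throughout.

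Under STM2457 the half-lives were 5.36 h for Dnmt3b, 5.22 h for Dnmt3l, 4.13 h for Dnmt1, 4.51 h for Dnmt3a, 3.80 h for Uhrf1, 2.57 h for Tet1, 4.20 h for Tdg and 2.94 h for Tet2. The median over all transcripts was 3.45 h. The test on half-lives of the replicate series called 0 of 5772 transcripts (limma, 405 at unadjusted p under 0.05). STM2457 series 4 has no library at 3.5 h and was fitted without that time. With 3.5 h left out of every series, the test called 0 of 5898 transcripts. The log2 difference went from -0.24 to -0.12 for Dnmt3b, -0.37 to -0.12 for Tet1 and 0.93 to 0.94 for Tet2.

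The 4 replicate series of Dnmt3b gave 6.80, 6.45, 6.06 and 5.36 h in DMSO and 6.00, 4.13, 6.57 and 4.55 h in STM2457, with overlap and a log2 difference of -0.24 ± 0.24 (adjusted p = 0.86). Those of Dnmt3l gave 5.12, 4.01, 4.98 and 7.24 h in DMSO and 7.28, 4.48, 5.64 and 3.87 h in STM2457 (-0.01 ± 0.29, adjusted p = 0.997). These 2 members, which had the largest fall in read counts, showed no difference in half-life beyond the spread of the series. At SE of 0.24 and 0.29, a change in half-life as large as their fall in read counts would not have passed this test. Whether their half-lives changed by that much is thus not decided.

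Tet2 was the only member whose series did not overlap between the treatments, all longer under STM2457, as for 2.62% of transcripts. The series gave 2.06, 0.91, 1.97 and 1.39 h in DMSO and 2.35, 3.83, 2.95 and 2.54 h in STM2457. The log2 difference was 0.93 ± 0.32 (unadjusted p = 0.015, adjusted p = 0.67). As the fit divides by the rate at the start of the chase, which was higher in DMSO for Tet2, it was also run with a free starting value. The series then gave 1.82, 0.93, 2.09 and 1.58 h in DMSO and 2.67, 2.68, 2.28 and 1.97 h in STM2457, which overlap, and the difference was 0.63 ± 0.26 (unadjusted p = 0.036, adjusted p = 0.44).

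**Figure D4:**
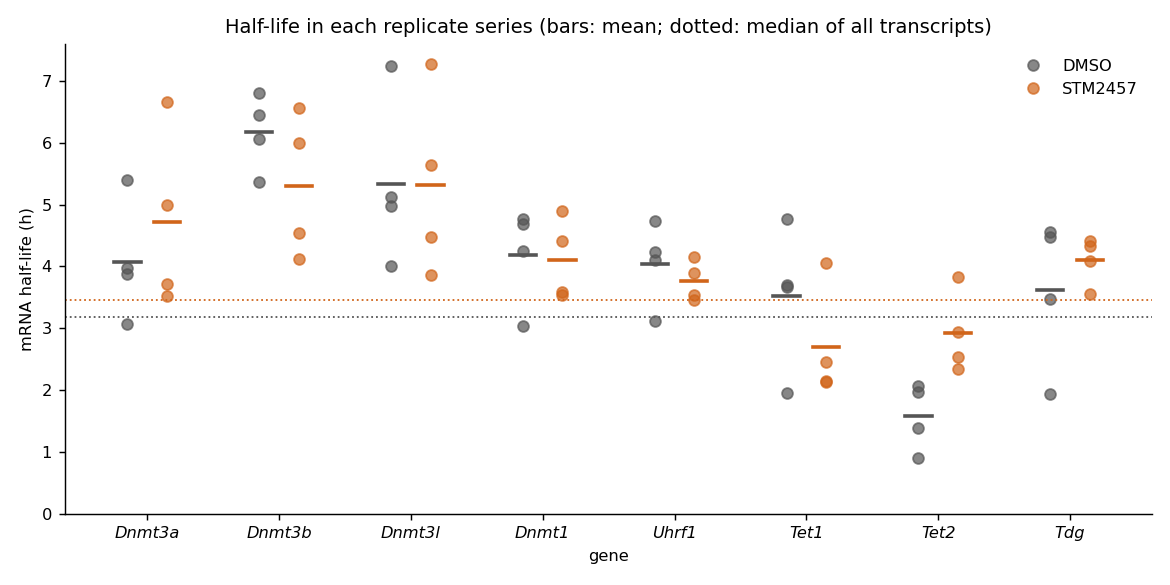
mRNA half-life in hours of each of the 8 genes in the 4 replicate series of each treatment, grey for DMSO and orange for STM2457. Short bars are means, and dotted lines are the medians of all transcripts (3.19 h and 3.45 h). Only the series of Tet2 do not overlap.

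Both treatments lost label in a step rather than evenly. In DMSO the conversion rate over all genes went from 1.01 ± 0.03% (SD over 4 libraries) at 3.5 h to 0.53 ± 0.03% at 5.3 h. In STM2457 it went from 0.93 ± 0.02% (SD over 3 libraries) to 0.53 ± 0.02% (SD over 4). In Dnmt3b the rate was 1.68, 1.59, 1.30 and 1.30% at 3.5 h and 0.69, 0.61, 0.70 and 0.69% at 5.3 h in DMSO. The residual SE of its fit was 0.18 in DMSO and 0.15 in STM2457, below the limit of 0.3, so half-lives of such transcripts average over an early plateau and a later drop.

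**Figure D5:**
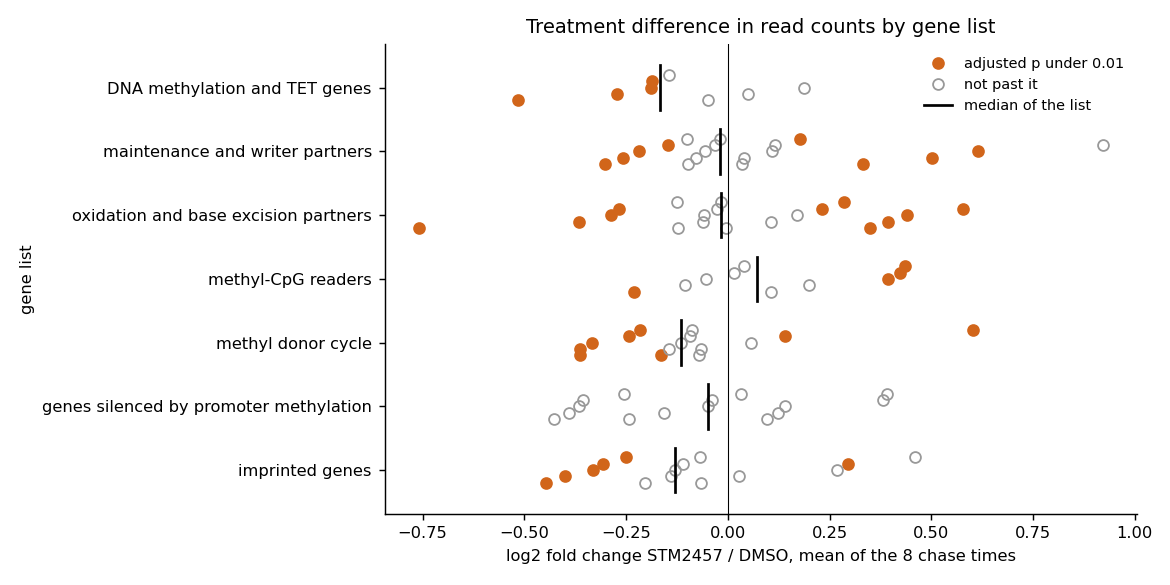
Log2 fold change of read counts, STM2457 against DMSO, on the mean of the 8 chase times, for the 8 genes and for 6 lists of related genes. Each point is 1 gene, filled where adjusted p is under 0.01, and vertical bars are list medians. The medians lie between -0.17 for the 8 genes and 0.07 for the methyl-CpG readers.

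Other genes of the cycle moved in both directions, from lists chosen with results of these data known. Of all genes tested, 13.9% rose and 12.6% fell, which is the background of the count of each list. Of 19 partners of the writers and of maintenance, 4 rose and 4 fell, with a median of -0.02. Zfp57, which keeps imprints methylated, rose (0.61), as did the deacetylase Sirt1 (0.50) and the histone methyltransferase Ehmt1 (0.33). Pcna, the sliding clamp that binds Dnmt1, fell by 0.30, Dppa3, which keeps Uhrf1 from chromatin, fell by 0.26, and Cdca7, a partner of the remodeller Hells, fell by 0.22. The calls of Pcna (-0.16, adjusted p = 0.12), Dppa3 (-0.18, adjusted p = 0.044) and Ehmt1 (0.21, adjusted p = 0.055) were lost without the times 1.5 and 5.3 h, and that of Cdca7 with reads mapped to more than 1 place left out (-0.09, adjusted p = 0.56).

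Of 19 partners of oxidation and base excision tested, 6 rose and 4 fell, with a median of -0.02. The glycosylases Smug1 (0.58) and Mbd4 (0.44) and the endonuclease Apex1 (0.39) rose. Gadd45a, a stress gene linked to demethylation, fell by 0.76, the scaffold Xrcc1 by 0.36 and the polymerase Polb by 0.29. Apex1, Xrcc1 and Polb, which act after a glycosylase has cut out a base, thus moved in opposite directions.

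Of 10 methyl-CpG readers and CXXC proteins tested, 3 rose and 1 fell (median 0.07). Cxxc5 (0.43), Zbtb38 (0.42) and Kdm2b (0.39) rose, and Cxxc1 fell by 0.23. The call of Cxxc1 was lost without DMSO replicate 1 at 1.5, 3.5 or 5.3 h or STM2457 replicate 2 at 3.5 h (adjusted p = 0.011 to 0.014). Kdm2b was not called without the times 1.5 and 5.3 h (0.23, adjusted p = 0.036). Of 15 genes of the methyl donor cycle, 2 rose and 6 fell (median -0.11). The folate enzymes Mthfd1 and Shmt1 fell by 0.36 and 0.33, while the folate carrier Slc19a1 (0.60) and the S-adenosylmethionine synthetase Mat2a (0.14) rose.

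Germline genes silenced by promoter methylation and imprinted genes were also looked at. DNA methylation was not measured, so their read counts do not give its level. Of 15 tested among the germline genes silenced by promoter methylation, 0 were called in either direction (edgeR, 2 at unadjusted p under 0.05, 0 by DESeq2), with a median of -0.05. Of 15 imprinted genes tested, 1 rose and 5 fell, with a median of -0.13, where 13.9% of all genes rose and 12.6% fell. Zdbf2 fell by 0.45, Meg3 by 0.40 and Nnat by 0.33, and Plagl1 rose (0.29).

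The patterns most like those of the members were taken over the 18 group means of log2 CPM among 7952 genes with a mean CPM of at least 10, as a description, since the points share libraries and depth. For Dnmt3b these were Tcea3 (Pearson's r = 0.97) and Bop1 (0.96), for Dnmt3l Ptges3 (0.96) and Rbpms2 (0.94), for Dnmt3a Ensa (0.92) and Dppa2 (0.89), and for Uhrf1 Rhoa (0.97) and Pa2g4 (0.93). For Dnmt1 they were Sult4a1 (0.87) and Rchy1 (0.85), for Tet1 Gsta4 and Pgk1 (0.87 each), for Tet2 Zbtb33 (0.83), and for Tdg Ciapin1 (0.97) and Arhgap4 (0.96). No member was among the 2 closest genes of another member.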

How the data were processed

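Male mESC were labelled with s4U, treated with STM2457 or DMSO and sequenced as QuantSeq 3′ libraries at 8 chase times and without label. The deposited tables hold, for each gene and library, raw counts (reads, T positions covered, and T-to-C conversions) and the conversion rate as a fraction (conversions divided by covered T positions). They were made by the authors with SLAM-DUNK 0.4.3 on GRCm38.p6. The 3′ UTR windows came from an earlier published study and were filtered by the authors against GENCODE M23. Positions variant in the unlabelled libraries were masked, and a read was allowed to map to many places. A column of CPM computed by the authors was also deposited and was not used, and the CPM printed here were computed from the counts. FastQC 0.11.8 is named in the submitters' processing notes. Totals of 4539726 to 7368244 counted reads per library set the precision, and without molecular identifiers reads are not independent molecules.

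Read counts of all genes were scaled by TMM, filtered by filterByExpr and fitted with edgeR 4.0.16 (quasi-likelihood) over the 71 libraries in 18 groups, with Benjamini-Hochberg adjusted p under 0.01 as the threshold. Conversions were fitted in the same way with the logarithm of T coverage as an offset, for genes with at least 100 covered T in every labelled library. For half-lives, the rate without s4U was subtracted, the rate was divided by that at the start of the chase and an exponential decay was fitted (mean T coverage over 100, half-life of 0.67 to 18 h, residual SE at most 0.3). Log2 half-lives of the 8 replicate series, formed by replicate number within a treatment, were compared with limma 3.58.1 (adjusted p under 0.05). As cells were lysed at each chase time, a series joins separate samples by their number. The spread and overlap of the series depend on that numbering. DESeq2 1.42.0 was an alternative, as were other size factors, no filter, a replicate block, the 2 groups alone, libraries left out in turn, and for rates other coverage limits and scaling. The means without 1.5 and 5.3 h, reads mapped to 1 place, the free starting value and the alternatives at single times from 1 to 8 h were chosen after seeing the data. The scripts were tested on simulated data. The members and lists were chosen with earlier results of these data known. All 8 members are given, and of each list the 3 called genes with the largest rise and the 3 with the largest fall, and for each member the 2 genes with the highest correlation, except for genes withheld, which are not reported here.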

Additional observations from a re-analysis of the deposited data

Results flagged for a closer look

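In 9 of 168 groups of 4 values of the members (read counts, rates at the start of the chase and half-lives), the highest or lowest value stood apart from the others by Dixon's criterion, and chance gives about 1 in 20. Dnmt1 had 118 CPM in STM2457 replicate 3 at 1 h, with 93.6 to 97.7 CPM in the others, and a conversion rate of 1.53% in STM2457 replicate 4 at the start of the chase, with 1.33 to 1.37% in the others. Dnmt3l had 156 CPM in DMSO replicate 1 at 12 h, with 114 to 121 CPM in the others, and its call at that time rests on this library. Tet1 had 38.7 CPM in STM2457 replicate 4 at 1 h, with 13.7 to 16.8 CPM in the others, and a half-life of 4.06 h in STM2457 series 1, with 2.14 to 2.46 h in the others. Tet2 had a conversion rate of 1.39% in STM2457 replicate 1 at the start of the chase, with 0.904 to 0.939% in the others, so the 3 other libraries lie farther from DMSO than this one. Tdg, nearly all of whose reads map to more than 1 place, had 247 CPM in STM2457 replicate 1 without s4U (193 to 199 in the others), 237 CPM in STM2457 replicate 2 at 1.5 h (201 to 207 in the others) and 191 CPM in STM2457 replicate 4 at 5.3 h (163 to 167 in the others). The causes were not tested.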

How the results depend on the processing

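A member result was counted as kept if it stayed on its side of the threshold. A result called in neither fit was thus kept even where its sign changed, also with libraries left out. Tet1 on the mean of the 8 chase times, with reads mapped to 1 place, was such a case. Half-lives from pooled conversions, which have no test, were kept if within the SD of the series. Under alternatives other than leaving out a library, 842 results were kept, 9 passed the threshold only under the alternative and 3 were lost. Those that passed were Dnmt1 on the mean of the 8 chase times and Dnmt3b at 0, 1 and 8 h with DESeq2, Dnmt3b at 3.5 h (adjusted p = 0.0051) and 8 h (adjusted p = 0.0050) and Tdg at 1.5 h in the fit of the 2 groups alone, and Uhrf1 over the chase in STM2457 with DESeq2 (-0.31, adjusted p = 0.0070) and with reads mapped to 1 place (-0.42, adjusted p = 0.0059). Those lost were Dnmt3l at 5.3 h and Dnmt3a with label against without, both in the 2 groups alone, and Uhrf1 at 8 h without the filter. Leaving out 1 library kept 1593, lost 9 (Dnmt3l at 12 h, Tet2 over the chase in DMSO, Uhrf1 at 8 h in 2 and Dnmt3a with label against without in 5) and added 14, of which 12 were Dnmt1 on the mean of the 8 chase times (adjusted p from 0.0053 to 0.0098) and 2 were Dnmt3b at 1 h, without DMSO replicate 1 (-0.55, adjusted p = 0.0013) or STM2457 replicate 4 (-0.51, adjusted p = 0.0045). Counts over all genes moved by over 1.5 times in the fit of the 2 groups alone to 107 without s4U, 956 for 12 h against the start of the chase in STM2457 and 14 for label against no label in DMSO, and with DESeq2 to 112 and 125 for label against no label in DMSO and STM2457. Calls on the conversion rate over 1 to 12 h became 305 (198 higher, 107 lower) with scaling, against 473 (100 higher, 373 lower) without. With 1 library or replicate left out, the counts ran from 109 to 193 at the start of the chase, 151 to 295 without s4U, 1091 to 1617 and 376 to 488 for 12 h against the start in DMSO and STM2457, 32 to 51 and 39 to 60 for label against no label in DMSO and STM2457, and 243 to 364 for the conversion rate. With the replicate block, 3375 genes were called on the mean of the 8 chase times, 230 at the start of the chase, 709 at 12 h, 341 without s4U, 488 for the conversion rate over 1 to 12 h and 0 for half-lives, and no call of a member changed. In read counts, the replicate numbers did not pair the samples. Deviations from group means of same-numbered samples correlated by 0.0097 on average over 35 pairs (-0.077 to 0.27), with 1 pair over 0.1. In the overall conversion rate, replicate 1 was the lowest of both treatments at 0, 1.5 and 2.3 h of chase, but not at every time. Pairing of the rates was not tested. Half-lives from pooled conversions gave values but no test over replicates. Depth limits Tet1 (40 to 226 reads in a library) and Tet2 (56 to 184 reads), and reads mapping to more than 1 place limit Tdg.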
